A study of Mus musculus with 7 samples.

Results

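The annexins are a family of calcium-dependent, membrane-binding proteins, and 10 annexin genes were followed here out of 20887 genes with a symbol on the array: Anxa1, Anxa2, Anxa3, Anxa4, Anxa5, Anxa7, Anxa8, Anxa10, Anxa11 and Anxa13. They were picked by gene symbol, but the family was chosen with earlier results of these data known. The scanner files hold a RefSeq accession for a probe and no symbol, so a probe was assigned to a member when its accession belonged to one of the listed symbols in RefSeq. All 10 genes had at least 1 probe, and 14 probes on 23 spots belonged to them. Anxa1, Anxa7, Anxa8 and Anxa11 had 2 probes each, and the other genes had 1.

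Gene expression had been measured in intestinal epithelial cells that lacked Mob1a and Mob1b, scaffold-like adaptors of the Hippo pathway that switch on its Lats kinases. All mice were males of 8 weeks on a C57BL/6J background, carried floxed alleles of both genes (Mob1a f/f and Mob1b f/f) and received tamoxifen at 80 mg/kg per day on 2 days. The knockout mice also carried Villin-creERT2, in which the Villin promoter drives a tamoxifen-activated Cre recombinase in the intestinal epithelium; they were sampled at day 4 (2 arrays), day 7 (2 arrays) and day 10 (1 array). The 2 control arrays came from floxed mice without Cre, so that an effect of Cre itself and the deletion cannot be told apart. The labels place the controls at day 7 after tamoxifen, whereas the series' design text speaks of day 0. The design text names 2 different mice at each of the times 0, 4 and 7 days, and the cells were released from the proximal intestine with 2 mM EDTA. Each replicate at those times is thus 1 mouse. Day 10 rests on 1 array, whose mouse the design text does not name.

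Annexins share a core of repeated domains that binds acidic phospholipids when calcium rises, and differ in the short amino-terminal tail that recruits partner proteins. Through these contacts they take part in membrane repair, in membrane traffic and in the organisation of the cortical cytoskeleton. In the intestine, Anxa2 lies with its partner S100a10 beneath the enterocyte surface, Anxa13 belongs to the apical traffic of enterocytes, and Anxa1 is known for damping inflammation and for aiding repair of epithelial wounds.

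Levels are given as log2 of the processed signal minus log2 of the array's 75th percentile, so that a level of 0 is the 75th percentile and a difference of 1 is a doubling in relative signal. The levels of different probes are not comparable. A probe counted as measured on an array when the scanner software marked it well above background there. Probes measured on at least 2 of 7 arrays were tested, which left 11 of the 14 annexin probes and 9 of the 10 genes; both Anxa8 probes and 1 Anxa1 probe were measured at day 10 only. Differences were tested with limma over 28956 probes, with Benjamini-Hochberg adjustment, and a difference was called at an adjusted p under 0.05. The error given with a difference is the standard error of that fit. Day 10 has no replicate, and its array is taken to share the spread seen in the other groups.

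The arrays of a group correlated at 0.985 (control), 0.988 (day 4) and 0.976 (day 7), and the day 10 array at 0.861 to 0.918 with the others. The share of probes well above background ran from 45.2% to 51.3%, and 0 spots were saturated. All arrays lay on 1 slide. The control and day 4 arrays lay in its row 1 and the day 7 and day 10 arrays in its row 2, so slide row and time cannot be told apart in differences between control or day 4 and day 7 or day 10. Day 4 against control and day 10 against day 7 are comparisons within a row. Both Mob1b probes were lower on all 5 knockout arrays than on either control array; probe A_55_P2083063 fell by 1.58 ± 0.22 at day 7 (limma, adjusted p = 0.0133) and by 1.62 ± 0.27 at day 10 (adjusted p = 0.00694). Leaving out control replicate 1 (adjusted p = 0.0829) or day 7 replicate 1 (adjusted p = 0.0544) ended the day 7 call. The single, dim Mob1a probe was not called at day 4 (-0.26 ± 0.25, adjusted p = 0.957) or day 7 (0.26 ± 0.25, adjusted p = 0.576). It was higher by 1.62 ± 0.30 at day 10 (adjusted p = 0.0108), which normexp background correction reduced to 0.57 (adjusted p = 0.132). Whether these probes lie within the deleted exons was not examined.

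All 9 markers of epithelial cells were well above background on all 7 arrays, with a summed level (signal over the 75th percentile) of 1549 to 1890. At day 10, 3 of the 9 were called higher against control and 1 lower. Krt18 was higher by 1.73 ± 0.26, Cdh1 by 1.31 ± 0.25 and Krt19 by 1.01 ± 0.29, and Vil1 fell by 1.41 ± 0.26. Other markers also moved with time. Over all probes tested against control, 10.8% were called higher and 17.5% lower at day 10, and 3.10% higher and 4.46% lower at day 7. At day 10 all 11 enterocyte markers were called lower, with a median log2 difference of -3.56, and their summed level was 382 against 2892 to 2967 in the controls. All 8 T cell markers tested were called lower as well, with a summed level of 13.8 against 194 to 217. Of 7 macrophage and monocyte markers, 5 were called higher and 0 lower (Itgam and Lyz2 did not pass, at 0.76 ± 0.30 and -0.84 ± 0.66), and their summed level was 82.2 against 36.0 to 37.9. Of 10 neutrophil markers with a probe, S100a8, Cxcr2, Retnlg, Ngp and Mmp8 were well above background on the day 10 array and on no other, and the other 5 were tested. Of these, 2 were called higher and 1 lower at day 10, with a median log2 difference of 0.19: S100a9 was at least 4198-fold higher than in the controls, Camp was higher by 1.71 ± 0.38 (adjusted p = 0.0203), and Mpo fell by 1.33 ± 0.32 (adjusted p = 0.0265). Elane (-0.39 ± 0.46) and Csf3r (0.19 ± 0.39) did not pass. The summed level of the 5 neutrophil markers tested was 331 at day 10 against 139 and 183 in the controls, most of it from Csf3r, whose log2 level was 7.09 and 7.50 on the control arrays and 7.49 at day 10. On the day 7 arrays the summed levels were 2068 and 2580 for enterocytes, 328 and 284 for T cells and 43.8 and 51.9 for macrophages. Among these markers, those called at day 7 were S100a9 (at least 6.52-fold higher), the macrophage marker Mrc1 (4.53-fold higher), the T cell marker Gzmb (higher by 1.46 ± 0.25) and the enterocyte marker Slc2a2 (fell by 1.60 ± 0.29). In RNA of a whole cell preparation, fewer cells of a type and less RNA per cell cannot be told apart.

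**Figure D1:**
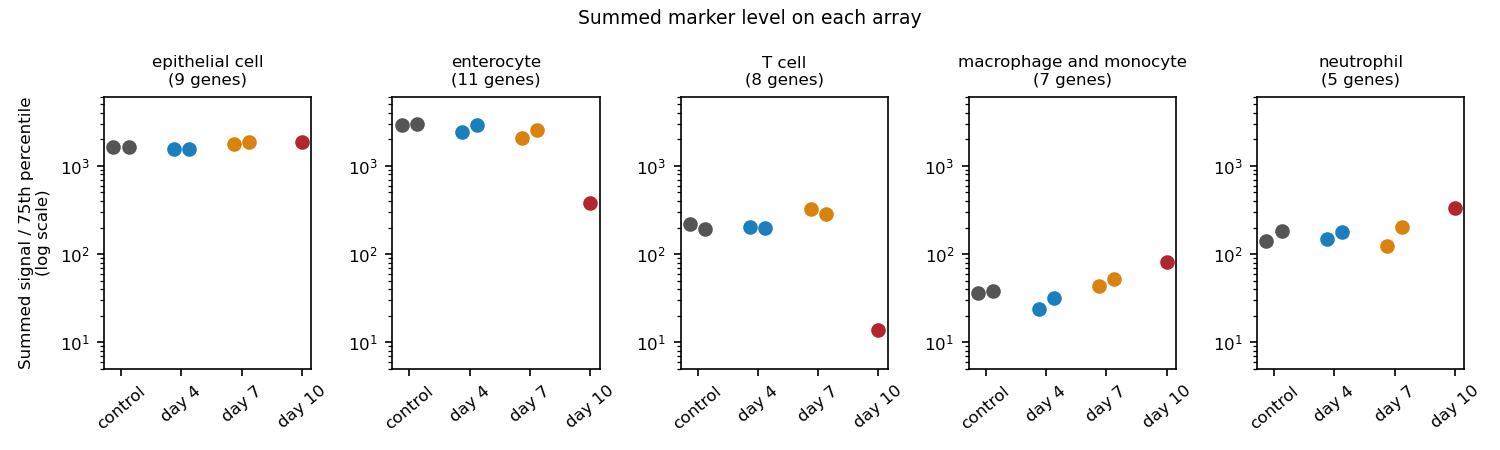
Summed level of cell type markers (signal over the array's 75th percentile, log scale) on each array, for the markers that were tested. Points are single arrays of control, day 4, day 7 and day 10. The epithelial sum lies between 1549 and 1890 on all arrays, although 3 of its 9 genes were called higher and 1 lower at day 10. The enterocyte sum is 382 and the T cell sum 13.8 at day 10.

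The promoters of Anxa1, Anxa10, Anxa5 and Anxa8, the members with some of the widest differences at day 10, are shown first, because these 4 genes were high together on the day 10 array and their windows can be read for letters they share. The windows run from 250 bases before to 50 bases after the gene start and were taken from RefSeq (GRCm38.p6; the array files carry the build label mm9). Capitals mark matches to 1 of 2 motifs searched on both strands: GGAATG (reverse CATTCC), the core bound by TEAD factors, the DNA-binding partners of YAP and TAZ downstream of the Hippo kinases, and TGANTCA (its own reverse), the AP-1 core. Of 32851 promoters in the table, 14.7% hold the TEAD core and 7.81% the AP-1 core. RefSeq windows were found for 8 members; for Anxa4 and Anxa7 there were 2 each. The Anxa1 window (chr19:20390622-20390921, minus strand) holds 1 TEAD match, 236 bases before the start. The Anxa10 window (chr8:62123144-62123443, minus strand) holds 2 AP-1 matches, 180 and 16 bases before the start. No match was found in the windows of Anxa5 (chr3:36475838-36476137, minus strand) and Anxa8 (chr14:34085729-34086028, plus strand).
Anxa1: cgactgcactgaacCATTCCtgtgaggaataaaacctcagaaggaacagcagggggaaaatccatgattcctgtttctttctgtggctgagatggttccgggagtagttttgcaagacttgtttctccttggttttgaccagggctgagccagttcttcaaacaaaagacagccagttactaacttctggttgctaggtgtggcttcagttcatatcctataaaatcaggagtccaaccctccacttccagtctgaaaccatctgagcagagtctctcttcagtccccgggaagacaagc
Anxa10: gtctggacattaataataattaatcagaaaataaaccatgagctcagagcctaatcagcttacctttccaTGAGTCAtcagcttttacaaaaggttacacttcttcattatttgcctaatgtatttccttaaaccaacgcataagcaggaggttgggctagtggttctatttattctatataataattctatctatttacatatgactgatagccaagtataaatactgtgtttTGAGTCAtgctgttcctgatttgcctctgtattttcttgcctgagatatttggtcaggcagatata
Anxa5: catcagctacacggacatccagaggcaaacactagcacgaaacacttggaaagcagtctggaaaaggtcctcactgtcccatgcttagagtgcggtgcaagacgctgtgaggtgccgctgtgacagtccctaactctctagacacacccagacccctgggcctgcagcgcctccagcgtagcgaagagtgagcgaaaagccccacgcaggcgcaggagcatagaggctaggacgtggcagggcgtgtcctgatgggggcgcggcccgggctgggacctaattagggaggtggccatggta
Anxa8: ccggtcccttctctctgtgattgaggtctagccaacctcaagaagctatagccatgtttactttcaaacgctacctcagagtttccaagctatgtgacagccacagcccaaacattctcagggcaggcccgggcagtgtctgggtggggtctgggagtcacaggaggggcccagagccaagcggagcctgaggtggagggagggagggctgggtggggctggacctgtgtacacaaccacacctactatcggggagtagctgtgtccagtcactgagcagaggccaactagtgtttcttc
Among the other members with a window, Anxa2 holds 1 AP-1 match, 95 bases before its start, and Anxa4, Anxa7 and Anxa11 hold none. A match is a run of letters, not a measured binding site, and a window without one says nothing about a factor acting elsewhere.

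The first group of members is that of Anxa5 and Anxa3, which rose by day 7 and were higher again at day 10. Of the 11 annexin probes tested, 2 were called higher at day 7 against control and 0 lower, where 7.55% of all probes tested were called, 3.10% higher and 4.46% lower. Over the 11 probes the median difference was 0.12, against -0.07 over all probes. Unadjusted p was under 0.05 for 4 of the 11, and for 6670 of all 28956 probes tested.

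Anxa5 (chromosome 3, probe A_51_P426754) encodes the annexin that binds phosphatidylserine exposed on the surface of dying cells and assembles into a lattice on damaged membrane. Its level was 1.14 and 1.25 on the control arrays, 1.18 and 1.12 at day 4, 3.65 and 3.76 at day 7 and 5.67 at day 10. Day 4 overlapped the controls, both day 7 arrays lay above them, and the day 10 array lay above day 7. At day 7 the difference from control was 2.51 ± 0.20, a 5.71-fold higher signal (n = 2 against 2, limma adjusted p = 0.00341). Against day 4 it was 2.55 ± 0.20 (adjusted p = 0.00803), a call that ended without day 4 replicate 1 (adjusted p = 0.0790) or without day 4 replicate 2 (adjusted p = 0.0946). At day 10 Anxa5 was 22.3-fold higher than in the controls (4.48 ± 0.25, adjusted p = 0.000262) and 3.90-fold higher than at day 7 (1.96 ± 0.25, adjusted p = 0.00453).

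Anxa3 (chromosome 5, probe A_55_P2056325), whose product is known from phagocyte granules and as a marker in several carcinomas, moved in the same steps from a lower starting signal. The controls read -0.86 and -1.52, day 4 read -1.60 and -1.42, day 7 read 2.96 and 1.58, and day 10 read 4.91. The day 7 mice differed from each other by more than the mice of any other group did, yet both lay above every control and day 4 array. The difference at day 7 was 3.46 ± 0.48 from control (adjusted p = 0.0136), and 3.79 ± 0.48 from day 4 (adjusted p = 0.0219). The second of these calls ended without day 4 replicate 1 (adjusted p = 0.136) or replicate 2 (adjusted p = 0.173). At day 10 the signal was 68.4-fold higher than in the controls (6.10 ± 0.59, adjusted p = 0.00112). The step from day 7 to day 10 was 2.64 ± 0.59 (adjusted p = 0.0297). It was not called without day 4 replicate 1 or 2, although these fits kept every array compared and the same difference. Without a filter on dim probes it was not called either (adjusted p = 0.0537).

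At day 7, 1 of 5 neutrophil markers tested (S100a9) and 1 of 7 macrophage markers (Mrc1) were called higher and 0 lower, as given above. The part of such cells in the rise of Anxa3 and Anxa5 was not tested. In the comparison of day 7 with day 4, 2 of 11 annexin probes (these same genes) were called higher and 0 lower, where 2.85% of all probes were called, 1.30% higher and 1.54% lower. The comparisons with control share their control arrays, and those with day 4 share the day 7 arrays, so they are not independent of each other.

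**Figure D2:**
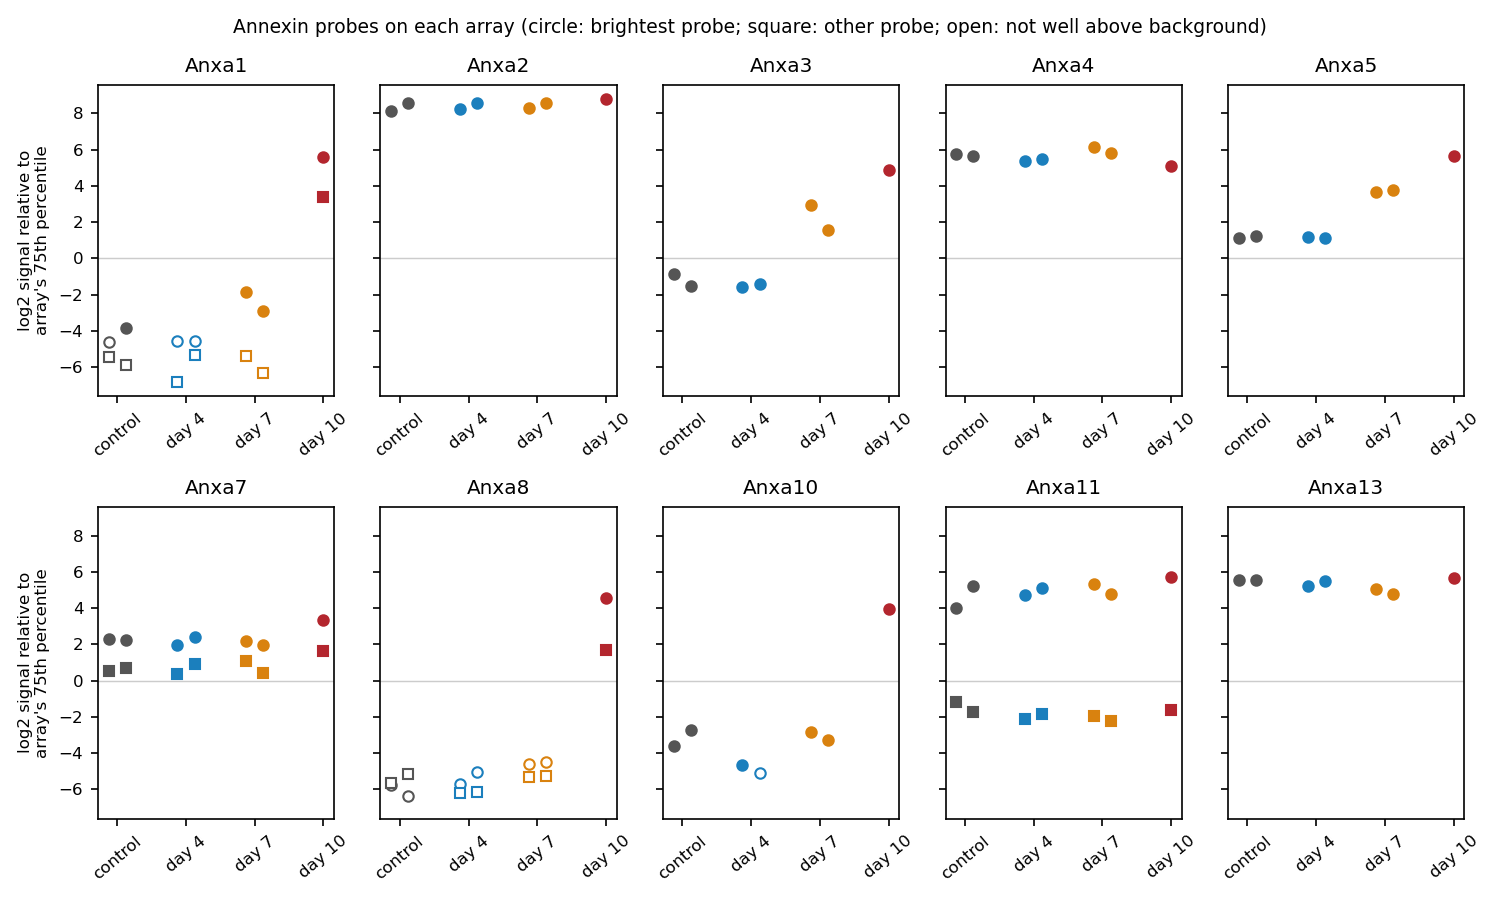
Level of every annexin probe on each array (log2 signal relative to the array's 75th percentile), with a panel for each gene. Circles are the brightest probe and squares the other probe, open symbols were not well above background, and points are single arrays. Anxa5 steps from 1.14 and 1.25 in controls to 3.65 and 3.76 at day 7 and 5.67 at day 10, and Anxa8 is measured at day 10 only.

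The next group, Anxa1, Anxa8 and Anxa10, was dim up to day 7 and high on the day 10 array. Against control, 5 of the 11 annexin probes tested were called higher at day 10 and 0 lower, where 28.2% of all probes were called, 10.8% higher and 17.5% lower. The called genes were Anxa1, Anxa3, Anxa5, Anxa7 and Anxa10. The median difference over the 11 probes was 1.08, against -0.13 over all probes tested, both under the main scaling. Under scaling to each array's median the value over all probes was -0.34, and under scaling to probes measured on all arrays it was 0.08. A change of scaling moves the annexin probes by the same amount as all others, so these values are not to be set against 1.08. Each of the 5 calls rests on 1 array at day 10.

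Anxa1 (chromosome 19, probe A_55_P2092826) encodes the annexin that acts on formyl peptide receptors to damp leukocyte recruitment and is also a substrate of the EGF receptor. Its level was -4.63 and -3.82 in the controls, -4.56 and -4.57 at day 4, -1.88 and -2.88 at day 7 and 5.61 at day 10. In raw terms, the processed signal was 12.9 and 26.2 in the controls and 26635 at day 10. The probe was well above background on 1 of 2 control arrays, on neither day 4 array and on all later arrays. The day 7 arrays lay above all earlier ones, with a difference from control of 1.84 ± 0.42 that missed the threshold (adjusted p = 0.0532). It passed without day 7 replicate 2 (2.34, adjusted p = 0.0340) and under scaling to probes measured on all arrays (1.88, adjusted p = 0.0499). It was smaller without day 7 replicate 1 (1.34, adjusted p = 0.169), without control replicate 1 (1.44, adjusted p = 0.226) and with normexp background correction (0.75, adjusted p = 0.117). At day 10 the difference from control was 9.83 ± 0.51, a 913-fold higher signal (adjusted p = 0.000243), and that from day 7 was 7.99 ± 0.51, 255-fold (adjusted p = 0.000857). With normexp background correction the first of these was 7.81, and 1 of the 2 control signals was not well above background, so its size is uncertain. The other probe, A_66_P120567, was measured at day 10 alone, at a level of 3.37 against -5.42 and -5.91 in the controls. It was at least 291-fold higher than in the controls and at least 224-fold higher than at day 7, without a test. An "at least" fold sets the day 10 level against the dimmest signal well above background on the arrays where the probe was not measured, or the probe's own signal if higher.

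Anxa8 (chromosome 14), an annexin of stratified epithelia, had no measured signal before day 10. Its main probe, A_51_P207591, is printed on 10 spots of each array. The median spot read 5.59 and 4.54 units of processed signal on the control arrays, 7.93 and 11.6 at day 4, 16.3 and 16.1 at day 7 and 12938.2 at day 10. On the day 10 array the 10 spots lay between 12395.7 and 13408 and all were well above background; on each earlier array at most 1 spot was. The level of the averaged spots was 4.57 at day 10, at least 666-fold above the controls and at least 474-fold above day 7. The other Anxa8 probe, A_55_P1965338, read 1.70 at day 10 against -5.66 and -5.15 in the controls, at least 91.6-fold higher. No p-value is given for Anxa8, because neither probe passed the filter; agreement of 10 spots on 1 array covers the measurement and not the spread between mice.

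Anxa10 (chromosome 8, probe A_51_P216679) encodes an annexin best known from gastric epithelium. The controls read -3.62 and -2.71, day 4 read -4.64 and -5.08, day 7 read -2.82 and -3.27, and day 10 read 3.97. Unlike Anxa3 and Anxa5 it overlapped the controls at day 7, with a difference of 0.12 ± 0.37 (adjusted p = 0.879). Both day 4 arrays lay below both controls, by 1.70 ± 0.37, which did not pass (adjusted p = 0.386); 1 of the 2 day 4 arrays was not well above background, so the size of this difference is uncertain. At day 10 the difference from control was 7.13 ± 0.45, a 140-fold higher signal (adjusted p = 0.000352), and the difference from day 7 was 7.01 ± 0.45 (129-fold, adjusted p = 0.000878). With normexp these differences were 5.82 and 5.87. Of 10 listed stomach markers, 3 could be tested, and Tff1 was called higher and Gkn3 and Pgc lower at day 10. Gkn1, Gkn2, Cldn18, Atp4a, Atp4b and Cblif stayed near background on all 7 arrays.

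In the comparison of day 10 with day 7, which lies within 1 slide row, the same 5 genes were called higher and 0 lower, where 17.9% of all probes were called, 7.27% higher and 10.7% lower. The large day 10 values of Anxa1, Anxa8 and Anxa10 stand on an array with other shifts against control. On it 11 of 11 enterocyte markers and 8 of 8 T cell markers were lower, and 5 of 7 macrophage markers were higher. Of 5 neutrophil markers tested, 2 were higher and 1 lower, and S100a8, Cxcr2, Retnlg, Ngp and Mmp8 were measured on that array alone and not tested. The part of these shifts in the annexin differences was not tested. Anxa1 and Anxa3 are known to be abundant in neutrophils. Stromal markers were measured in part. Of 4 fibroblast markers tested, Thy1 and Col1a2 were well above background on all 7 arrays and 0 were called at day 10, while Dcn was called lower at day 7 (fell by 1.99 ± 0.37, adjusted p = 0.0301). Of 4 endothelial markers tested, Kdr, Pecam1 and Plvap were well above background on all 7 arrays, and 0 were called at day 7 or day 10. Neither of the 2 smooth muscle markers tested was called at those times, and Tagln was measured on all 7 arrays. Col1a1, Pdgfra, Lum, Cdh5, Tek, Myh11 and Des stayed near background on all of them.

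**Figure D3:**
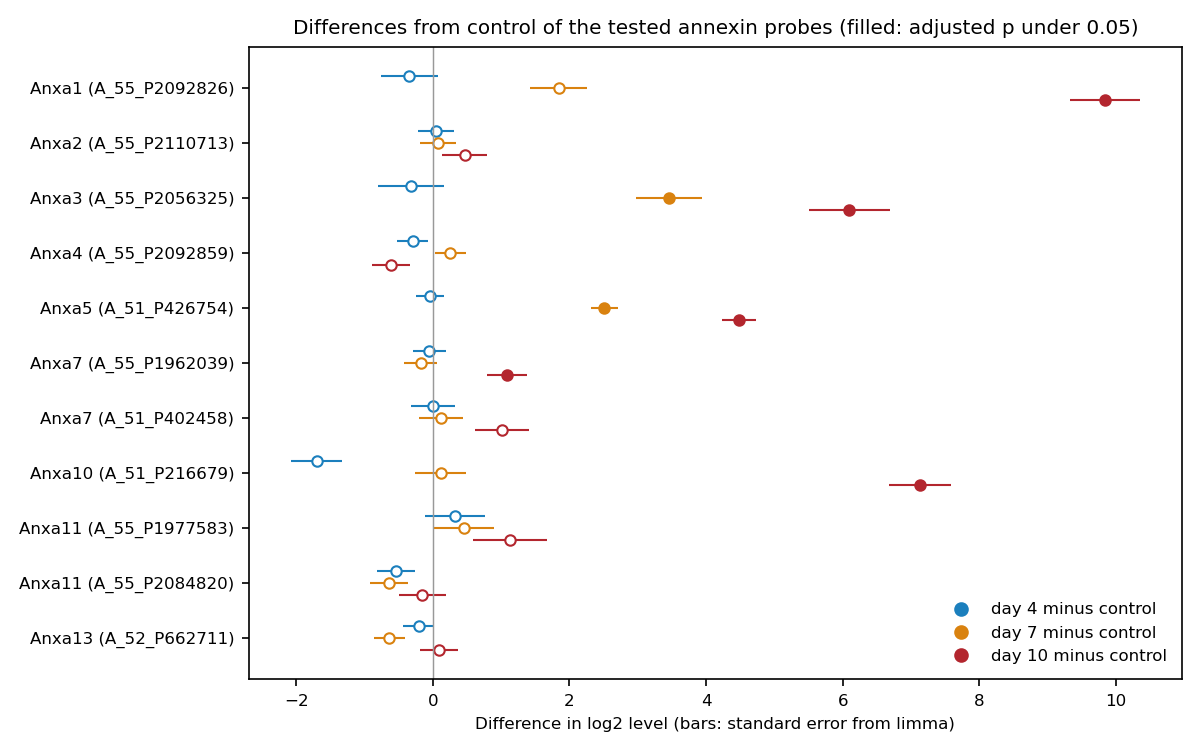
Difference from control at day 4, day 7 and day 10 for the 11 annexin probes that were tested (log2 scale). Bars are standard errors from limma, and filled points have an adjusted p under 0.05. Anxa3 and Anxa5 are called at day 7 and day 10, and Anxa1, Anxa10 and the brightest Anxa7 probe at day 10.

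The remaining members, Anxa7, Anxa2, Anxa4, Anxa13 and Anxa11, were not called at day 4 or day 7, and of these only an Anxa7 probe was called at day 10. Anxa7 (chromosome 14), a calcium-dependent GTPase linked to secretion, read 2.28 and 2.25 in the controls, 1.99 and 2.43 at day 4, 2.20 and 1.97 at day 7 and 3.35 at day 10 on probe A_55_P1962039. Only the day 10 array stood above the others, with a 2.12-fold higher signal than control (1.08 ± 0.30, adjusted p = 0.0395) and a difference of 1.26 ± 0.30 from day 7 (adjusted p = 0.0345). The other probe, A_51_P402458, gave a like difference from control that did not pass (1.01 ± 0.40, adjusted p = 0.110). The call against control ended without control replicate 1 (adjusted p = 0.113), control replicate 2 (adjusted p = 0.112) or day 4 replicate 1 or 2 (adjusted p = 0.0507), and under scaling to the array median (0.88, adjusted p = 0.0970). The call against day 7 ended without either control (adjusted p = 0.0635), without day 7 replicate 1 (adjusted p = 0.0539) and without day 7 replicate 2 (adjusted p = 0.0858).

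Anxa2 (chromosome 9), which binds S100a10 and tethers plasminogen and its activator at the cell surface, differed little between arrays under the main scaling. Its level was 8.12 and 8.59 in the controls, 8.26 and 8.55 at day 4, 8.30 and 8.57 at day 7 and 8.82 at day 10. The 6 arrays up to day 7 overlapped and the day 10 array lay highest, by 0.46 ± 0.32 over control (adjusted p = 0.332). Under quantile normalization the day 10 difference was larger and passed (1.102, adjusted p = 0.0441).

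Anxa4 (chromosome 6), an annexin of secretory epithelia, read 5.77 and 5.63 in the controls, 5.35 and 5.46 at day 4, 6.13 and 5.79 at day 7 and 5.09 at day 10. The day 10 array was the lowest, by 0.61 ± 0.28 under control (adjusted p = 0.150) and 0.87 ± 0.28 under day 7 (adjusted p = 0.0813). Neither difference passed.

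Anxa13 (chromosome 15), the intestine-restricted annexin and the one regarded as closest to the family's founder, read 5.57 and 5.55 in the controls, 5.20 and 5.51 at day 4, 5.05 and 4.79 at day 7 and 5.65 at day 10. Both day 7 arrays lay below both controls, by 0.64 ± 0.23, which did not pass (adjusted p = 0.164); with normexp background correction the difference was -0.96 with an adjusted p of 0.0468. At day 10 the difference from control was 0.09 ± 0.28 (adjusted p = 0.836). On that same array Sis was lower by 5.83 ± 0.25 (adjusted p = 0.000227) and Lct was at least 7380-fold lower. Whether Anxa13 differs from these enterocyte genes in its response was not tested.

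Anxa11 (chromosome 14), which links RNA granules to lysosomes, had 2 probes that did not move alike. Probe A_55_P1977583 read 3.99 and 5.20 in the controls, 4.74 and 5.11 at day 4, 5.32 and 4.77 at day 7 and 5.73 at day 10. The control mice differed more here than for any other member, and the day 10 difference of 1.13 ± 0.54 did not pass (adjusted p = 0.173), although it did without control replicate 2 (1.74, adjusted p = 0.0405); without control replicate 1 it was 0.52 (adjusted p = 0.462). Probe A_55_P2084820 lay between -2.22 and -1.16 on all arrays, with a day 10 difference of -0.15 ± 0.34 (adjusted p = 0.772).

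At day 4 no annexin probe was called in limma, of 11 tested, where 0.0311% of all probes were called, all of them higher. Unadjusted p was under 0.05 for 1 of the 11 (Anxa10) and for 1786 of all 28956 probes tested. The median difference was -0.21, against -0.06 over all probes. The annexin genes that are no members, Anxa6 and Anxa9, were tested beside the members. Anxa6 read 0.57 and 0.41 in the controls and -0.47 at day 10, a difference of -0.97 ± 0.34 (adjusted p = 0.0840). Anxa9 read -2.09 and -2.39 in the controls and -1.15 at day 10, a difference of 1.09 ± 0.30 (adjusted p = 0.0415), a call lost on leaving out control replicate 1 (adjusted p = 0.0765), control replicate 2 (adjusted p = 0.138) or either day 4 array (adjusted p = 0.0760).

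Genes whose products work with annexins were taken as lists by function. For each list counted below, the shares over all probes tested against control were 3.10% called higher and 4.46% lower at day 7. At day 10 these shares were 10.8% and 17.5%. Of 9 annexin-binding EF-hand proteins tested, 1 was called higher at day 7 against control and 0 lower, and at day 10 3 were called higher and 0 lower; their medians were 0.07 and 0.24. S100a11, which binds Anxa1 and assists in membrane repair, was the one called at day 7. It read 3.37 and 3.59 in the controls, 4.47 and 4.19 at day 4, 5.73 and 5.76 at day 7 and 6.72 at day 10. The groups did not overlap, and the differences from control were 2.27 ± 0.22 at day 7 (4.82-fold, adjusted p = 0.00501) and 3.25 ± 0.27 at day 10 (9.49-fold, adjusted p = 0.000720). S100a6, which binds several annexins, was higher by 1.21 ± 0.29 at day 7 (adjusted p = 0.0597) and by 3.30 ± 0.35 at day 10 (adjusted p = 0.00153). Gca, a calcium-binding protein of granulocytes, differed by -0.44 ± 0.22 at day 7 (adjusted p = 0.292). S100a10, named after its values were seen because it is the partner of Anxa2, lay at 6.15 to 6.19 on the control and day 4 arrays, 6.42 and 6.49 at day 7 and 6.87 at day 10. Its differences from control were 0.29 ± 0.20 (adjusted p = 0.441) and 0.69 ± 0.24 (adjusted p = 0.0806).

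Of 8 membrane repair and scaffold genes tested, 2 were called higher and 0 lower at day 7, and 3 higher and 3 lower at day 10. Capn2, a catalytic calpain subunit, read 1.65 and 1.72 in the controls, 1.01 and 1.44 at day 4, 3.08 and 3.30 at day 7 and 6.40 at day 10. It was higher by 1.50 ± 0.24 at day 7 (adjusted p = 0.0196) and by 4.72 ± 0.30 at day 10 (26.3-fold, adjusted p = 0.000333). Ahnak, a giant scaffold protein bound by the Anxa2 complex, was higher by 1.36 ± 0.24 at day 7 (adjusted p = 0.0272) and by 2.75 ± 0.30 at day 10 (adjusted p = 0.00164). Sytl2, a Rab27 effector, differed by -1.18 ± 0.47 at day 7 (adjusted p = 0.204) and fell by 3.49 ± 0.58 at day 10 (adjusted p = 0.00703). Both day 7 calls were lost in most fits that left out 1 array. The differences in those fits stayed at 1.39 to 1.61 for Capn2 and 1.17 to 1.54 for Ahnak. The Ahnak call also ended in the fit of the compared groups alone, which kept every array compared and the same difference (1.36, adjusted p = 0.0610). The Ahnak losses therefore do not show that its call rests on 1 array. The Capn2 call held in the fits without a day 4 array, which keep every array compared. It was lost in the others, each of which left 1 array in a compared group. Such fits cannot show whether the Capn2 call rests on 1 array. With 1 array left out in each of 6 fits, the adjusted p ranged from 0.0415 to 0.106 for Capn2, which passed in 2, and from 0.0370 to 0.146 for Ahnak, which passed in 1 (the fit without day 7 replicate 2).

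Plasminogen activation is the surface proteolysis that Anxa2 is known to promote. Of 3 genes of that list tested, 2 were called higher and 0 lower at day 7, and 2 higher and 1 lower at day 10. Plaur, the urokinase receptor, read -1.70 and -0.42 in the controls, -0.38 and -1.26 at day 4, 3.52 and 2.17 at day 7 and 6.42 at day 10. It was 15.0-fold higher than control at day 7 (3.90 ± 0.62, adjusted p = 0.0190) and 179-fold higher at day 10 (7.48 ± 0.76, adjusted p = 0.00131). The day 7 call ended without control replicate 1 (adjusted p = 0.0784) or day 7 replicate 1 (adjusted p = 0.0792). Plat, the tissue plasminogen activator that binds Anxa2, was at least 2.58-fold higher at day 7 under the main processing (adjusted p = 0.0330). Normexp background correction reduced this log2 difference to 0.51 and removed the call (adjusted p = 0.331), so its size is uncertain. The call also ended when the compared groups were fitted alone (adjusted p = 0.0608). Of this list, 3 genes were well above background on day 7 replicate 1 and 2 on day 7 replicate 2, where Plat was the gene missing. At day 7 Plat was thus measured on 1 array only. At day 10 Plat was at least 2096-fold higher than in the controls (adjusted p = 0.000247). Plgrkt, a cell-surface plasminogen receptor, read 3.36 and 4.05 in the controls, 3.68 and 3.59 at day 4, 3.40 and 3.68 at day 7 and 1.69 at day 10. Day 7 overlapped the controls (-0.16 ± 0.29, adjusted p = 0.778), and the day 10 array lay below all others, having dropped by 2.01 ± 0.36 (adjusted p = 0.00910), though normexp background correction removed this call (-1.29, adjusted p = 0.179). The plasminogen precursor Plg, the urokinase gene Plau, Serpine2 and Serpinb2 stayed near background on all 7 arrays.

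**Figure D4:**
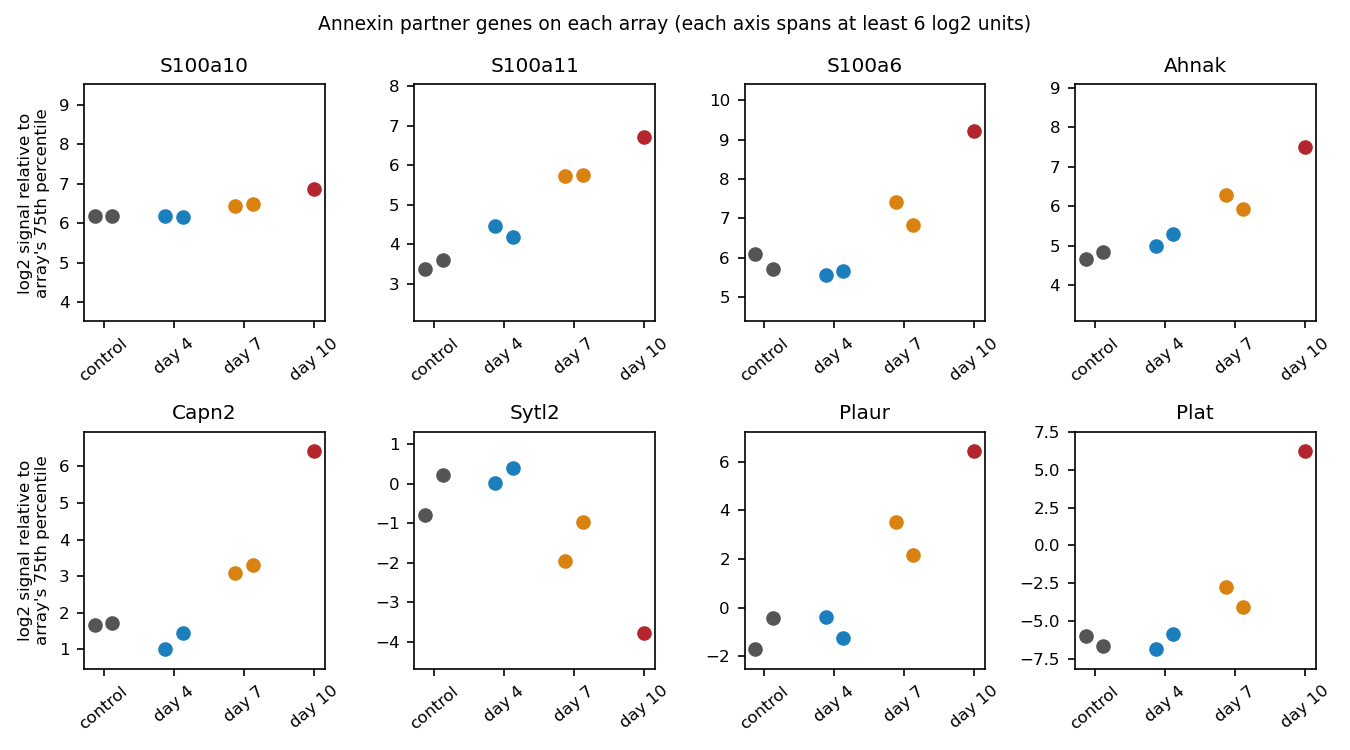
Level of 8 partner genes on each array (log2 signal relative to the array's 75th percentile). Points are single arrays, and each vertical axis spans at least 6 log2 units. S100a10 lies between 6.15 and 6.87, whereas Capn2 and Plaur step up at day 7 and again at day 10, and Sytl2 is lowest at day 10. Plat was not well above background on the control arrays.

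Of the receptor genes of Anxa1, Fpr1 and Fpr2 were well above background on the day 10 array alone. Their levels there were -0.29 and 0.19, near the array's 75th percentile, against at most -5.25 and -4.35 on the other arrays. For Fpr3, the 1 receptor gene tested, the day 10 difference was 1.43 ± 0.93 (adjusted p = 0.303). These receptors are made by neutrophils and macrophages, and the counts of their markers on the same array are given above; their part was not tested. Of 5 copines tested, calcium-dependent phospholipid binders of another family, none was called at day 7 and 2 were called higher at day 10, 0 lower: Cpne3 by 2.10 ± 0.39 (adjusted p = 0.0110) and Cpne1 by 1.37 ± 0.33 (adjusted p = 0.0274). The Cpne1 call was lost on leaving out control replicate 1 (adjusted p = 0.0943) or either day 4 array (adjusted p = 0.0591). No member of the partner lists was called at day 4.

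The genes whose levels followed each annexin most closely were read from Pearson correlations over the 7 arrays among 17064 named probes measured on at least 4 arrays. All points share the same 7 arrays, and the day 10 array weighs heavily, so the value over the 6 earlier arrays is given beside each as a description. For Anxa3 they were Tinagl1 (0.997, and 0.995 without day 10), Tmsb10 (0.995 and 0.990) and Tuft1 (0.995 and 0.989). Anxa5 was followed by Cdh1, the E-cadherin gene (0.995 and 0.988), Serpinb6b (0.994 and 0.994) and Ano1 (0.994 and 0.991). Closest to Anxa1 were Egfr, the EGF receptor gene (0.998 and 0.975), Gem (0.997 and 0.971) and Plekho1 (0.997 and 0.976). The nearest to Anxa7 were Itga3 (0.988 and 0.918), Ifitm6 (0.988 and 0.959) and Eid3 (0.986 and 0.875).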

How the data were processed

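Total RNA of intestinal epithelial cells was hybridised to 7 one-colour (Cy3) arrays. Intensity values come from the deposited scanner files, written by Feature Extraction 11.5.1.1 for Agilent design 028005 with build label mm9, per the file headers; gProcessedSignal is the background-subtracted spot signal, not scaled between arrays. The deposited value table equalled it within 0.1% for 100% of single-spot probes and served as an alternative; its column medians were 15.2 to 30.5, so it was linear and not centred. Control spots and spots marked as outliers (115 to 274 per array) were left out, which left 59305 spots of 55681 probes before outliers were removed, and repeated spots were averaged as log2 values. The files give accessions instead of gene names; RefSeq (GRCm38.p6) gave 1 symbol for 27509 probes and none for 28172. Levels were log2 signal minus each array's 75th percentile. Probes measured above background by the scanner flag on 2 or more of the 7 arrays (28956, after 34 were dropped for a missing spot) were fitted with limma (3.58.1) under R (4.3.3), files being read by data.table (1.17.8), as 1 mean per group over all arrays, 2-sided, with 3 residual and 3.13 prior degrees of freedom. The fit was tested on simulated data.

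Named were all members, up to 3 genes of each partner list with the smallest p at day 7 against control, up to 3 genes most like each of up to 4 called members, Mob1a and Mob1b, and markers beside a result. One gene of a partner list is not reported here and was left out of its counts. The members, the lists and the tests were chosen with earlier results of these data known. Alternatives were normexp (offset 50, on median signals because the files used hold no mean signal), quantile normalization, other scalings, filters on dim probes, the brightest probe of a gene, the deposited table, the replicate block, a fit of the compared groups alone and leaving out each replicate. Same-numbered mice deviated together with correlations of 0.01, 0.09 and 0.25, and no label says that a number marks a shared litter or day, so numbers were not taken as pairs. The number of arrays limits the precision.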

Additional observations from a re-analysis of the deposited data

How the results depend on the processing

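The calls of Anxa3 and Anxa5 at day 7 against control held in every alternative that kept all replicates. Over all 18 alternatives tried their differences were 2.77 to 4.15 and 2.45 to 2.85, and no called annexin difference changed sign. These are not 18 separate checks. For this comparison the fits without either day 4 array equal the fit of the compared groups alone, and the fit without day 10 equals the main fit. The lone day 10 array adds nothing to the estimate of spread, and leaving it out gave the same calls. Leaving out an array of a group not compared keeps the difference and changes at most the estimate of spread and its degrees of freedom. Leaving out 1 replicate at a time, the number of annexin probes called was 0 at day 4, 2 to 3 at day 7 against control, 0 to 3 at day 7 against day 4, 4 to 5 at day 10 against control and 4 at day 10 against day 7. With no filter on dim probes, 1 was called at day 7 against day 4 (Anxa3 reached an adjusted p of 0.0608). With only probes measured on all 7 arrays, which left 9 annexin probes, 3 were called at day 10 against control and 3 against day 7. With probes measured on at least 1 array, all 14 were tested and 8 were called at day 10 against control and 8 against day 7. This alternative was added after seeing the data, along with the omission of the day 10 array. The probes it adds, both of Anxa8 and 1 of Anxa1, enter only through the day 10 array, where they are high. Their calls were favoured by that filter and lend no support.

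With the replicate number as a block, 0 annexin probes were called at day 4, 2 at day 7 against control, 2 at day 7 against day 4, and 4 at day 10 against either group, since Anxa7 no longer passed (adjusted p = 0.0608 and 0.0574).

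Over all probes, 9 were called at day 4, and 1 to 8 on leaving out a replicate. That count was 33 with median scaling, 21 with probes measured on all arrays, 5 with scaling to those probes or with the compared groups alone, 3 with the replicate block, and 2 without a filter or with probes measured on at least 1 array. At day 7 against control 2187 were called (631 to 2470 on leaving out a replicate, the fewest without control replicate 1), against 1164 without a filter and 1227 with the compared groups alone. At day 7 against day 4 the count was 824 (45 and 0 without day 4 replicate 1 and 2), against 163 without a filter, 380 with probes measured on at least 1 array and 469 with the compared groups alone. At day 10 it was 8178 (5416 without control replicate 1). Of the day 10 calls, 38.1% were higher, against 28.0% with median scaling and 49.7% with scaling to probes measured on all arrays. Dim signal limits Anxa8 and Anxa10 before day 10 and Anxa1 before day 7, where only bounds or values near background exist. The brightest Anxa1 probe was well above background on both day 7 arrays, at levels of -1.88 and -2.88. The cause of these changes was not tested, beyond the number of probes or arrays each setting keeps.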
